A study of Mus musculus with 6 samples.

Results

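The cytosolic ribosomal protein genes were examined in left ventricular myocardium of mice with and without a diet-induced model of heart failure with preserved ejection fraction (HFpEF). They were taken as the protein-coding rows whose GENCODE symbol begins with Rpl or Rps and a number, or is Rpsa, Rplp0, Rplp1 or Rplp2, without the S6 kinase genes and pseudogenes. This gave 86 genes of the 54532 gene identifiers measured. Of these, 46 encode proteins of the large (60S) subunit, 31 encode proteins of the small (40S) subunit, and 8 are paralogs of such genes (Rpl3l, Rpl7l1, Rpl10l, Rpl22l1, Rpl36al, Rpl39l, Rps27l and Rps27rt). The last, Rps19bp1, met the naming rule but encodes a nucleolar binding partner of Rps19 and is not a ribosomal protein. All mice were male C57BL/6 and were 6 to 8 weeks old at the start. HFpEF mice were fed a high-fat diet with 60% of kcal from fat and drank water with 0.5 g/L of the nitric oxide synthase inhibitor L-NAME for 12 weeks. Chow mice had standard feed and plain drinking water over the same period. Each group had 3 mice with 1 library per mouse, and the recovered reads per library numbered from 13076772 to 15574914 in Chow and from 13461735 to 16027084 in HFpEF.

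The ribosome joins a small subunit, which decodes mRNA, to a large subunit, which forms peptide bonds and passes the growing chain through an exit tunnel. In mammals most ribosomal proteins are made from a single active gene each, are built into the particle in mostly equal numbers, and are degraded when made in excess. Their mRNAs begin with a C followed by a run of pyrimidines, the 5′ terminal oligopyrimidine (TOP) motif, through which mTOR and Larp1 control their translation. A few proteins have a second gene that is used in particular tissues. Rpl3, which lies close to the peptidyl transferase centre, is partly replaced in heart and skeletal muscle by its paralog Rpl3l.

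One HFpEF library stood apart from the others. Mitochondrially encoded genes took 7.17% of the recovered reads in HFpEF 3, against 22.6% in HFpEF 1, 20.1% in HFpEF 2 and 24.0% to 26.0% in the Chow libraries. Col1a1, the most abundant of the 5 fibroblast markers in HFpEF, was at an FPKM (fragments per kilobase of exons, relative to a total set for each library) of 2252 in HFpEF 3. It was at 54.0 and 87.2 in HFpEF 1 and HFpEF 2 and at 24.9 to 27.2 in Chow. The labelled tissue showed its defining markers in every library, with Actc1 (cardiac actin) at 4458 to 5336 in Chow and at 2445 to 3820 in HFpEF. All 5 cardiomyocyte markers were lower in every HFpEF library than in any Chow library, with medians relative to the Chow mean of -0.41, -0.26 and -1.02 on the log2 scale in HFpEF 1, 2 and 3. Their summed FPKM ran from 10739 to 11899 in Chow and from 5262 to 8429 in HFpEF. In bulk tissue, fewer cells of a type and less RNA per cell cannot be told apart. Results are given below with and without HFpEF 3 where it mattered.

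Start sequences were available in the RefSeq promoter table (GRCm38.p6) for 65 of the 85 ribosomal protein genes. The following windows are printed from 10 bases before the annotated start to 20 bases from it, because the pyrimidine run is what these genes are known to share. Capitals mark the longest run of a C followed by at least 4 C or T on the gene's strand.
Rpl14 (chr9:120571507-120571536, plus strand): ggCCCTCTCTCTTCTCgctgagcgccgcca
Rpl15 (chr14:18270967-18270996, minus strand): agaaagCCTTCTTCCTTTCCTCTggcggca
Rpl35 (chr2:39005112-39005141, minus strand): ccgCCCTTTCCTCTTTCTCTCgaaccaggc
Rplp2 (chr7:141447641-141447670, plus strand): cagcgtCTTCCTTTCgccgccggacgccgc
Rps6 (chr4:86857348-86857377, minus strand): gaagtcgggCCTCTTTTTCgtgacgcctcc
Rps27 (chr3:90213629-90213658, minus strand): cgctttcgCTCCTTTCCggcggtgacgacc
Rps12 (chr10:23787190-23787219, minus strand): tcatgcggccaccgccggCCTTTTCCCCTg
Rpl22l1 (chr3:28805498-28805527, plus strand): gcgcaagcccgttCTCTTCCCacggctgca
Rpl3l (chr17:24727816-24727845, plus strand): ttctagctctgtcatttgaCCTCTggtgcc

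The first 6 windows held a C and at least 4 further pyrimidines exactly at an annotated start. Such a start was found for 13 of the 57 60S and 40S genes in the table (22.8%), against 3.01% of all 27025 genes in it. A C and at least 7 further pyrimidines lay anywhere from 20 bases before to 30 bases after a start in 31 of the 57 (54.4%), against 17.04% of all genes. Rps12 and Rpl22l1 had their runs 8 and 3 bases past the annotated start. Rpl3l had a run of 5 pyrimidines 9 bases past its first annotated start, and met neither criterion. Among the 8 paralogs, 1 met the first criterion and 2 met the second. These are matches of letters in fixed windows, and annotated starts can differ from the starts used in heart.

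Of the 86 genes, 83 reached an FPKM of 0.5 in 3 or more libraries and were tested. The other 3 were the paralogs Rpl36al, Rpl39l and Rpl10l, the last of which is known as a testis form and was listed at 0 in all 6 libraries. Rpl36al was at most 0.268 and Rpl39l at most 0.308 FPKM in any library. None of the 83 genes passed an adjusted p under 0.05 in limma with Benjamini-Hochberg adjustment over all 14227 genes tested, where 0.0984% of genes passed. Nor did any pass with the further demand of a log2 fold change of 2 or more in size, where 0.0562% of genes passed. At an unadjusted p under 0.05, 1 gene was higher in HFpEF (Rpl3), where 10.2% of all genes tested were. By the same criterion, 5 were lower, among them Rpl3l, Rps27l, Rpl36 and Rps19bp1, or 6.02% of the 83, where 13.1% of all genes were. All 3 HFpEF libraries lay above all 3 Chow libraries for Rpl3, Rpl10 and Rpl22l1, 3.61% of the genes against 15.6% of all genes. They lay below all Chow libraries for 16 genes, 19.3% against 19.7%. With 3 mice per group, the exact two-sided permutation test of a single gene cannot give a p below 0.1.

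**Figure D1:**
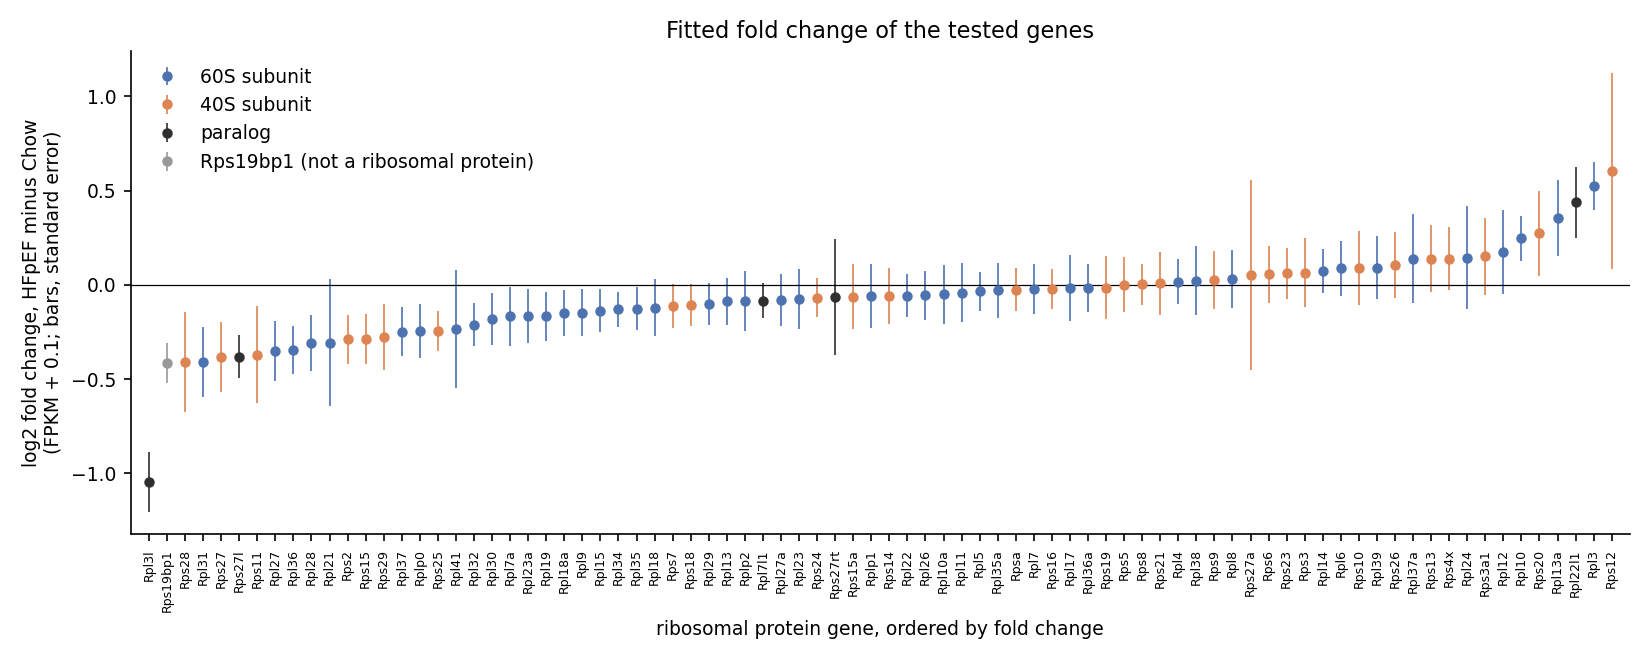
Fitted log2 fold changes (HFpEF minus Chow, on log2 of FPKM plus 0.1) of the tested genes (1 is not shown), ordered by value, with standard errors as bars and colours for the subunit. Rpl3l at -1.05 lies apart from the others shown, which run from -0.41 for Rps19bp1 to 0.60 for Rps12.

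Rpl3l and Rpl3 differed between the groups in opposite directions. Rpl3l (ENSMUSG00000002500, chr17:24727820-24736143 on the plus strand of GRCm38), the striated muscle paralog, was at an FPKM of 136.7, 135.9 and 136.5 in Chow 1, 2 and 3. In HFpEF 1, 2 and 3 it was at 61.6, 81.6 and 57.1. The groups did not overlap, the 3 Chow values lay within 1 unit of each other, and HFpEF 2 was the highest of the HFpEF libraries. Means were 136.4 ± 0.439 in Chow and 66.8 ± 13.1 in HFpEF (SD, n = 3), and the log2 fold change was -1.05 (SE 0.16), which in limma had an adjusted p of 0.0765 over all genes tested. Rpl3 (ENSMUSG00000060036, chr15:80077791-80091868 on the minus strand), the form used in most tissues, was at 50.01, 49.3 and 49.1 in Chow and at 70.5, 63.1 and 81.6 in HFpEF. Every HFpEF library lay above every Chow library. The means were 49.5 ± 0.455 and 71.7 ± 9.30 (SD, n = 3), with a log2 fold change of 0.53 (SE 0.13) and an adjusted p in limma of 0.118. Neither gene passed the threshold with all 6 libraries. Without HFpEF 3 the log2 fold change of Rpl3l was -0.94 with an adjusted p of 0.0160 and that of Rpl3 was 0.43 with an adjusted p of 0.0234 in limma, where 8.35% of all genes passed. Without HFpEF 2, Rpl3l had a log2 fold change of -1.20 and an adjusted p of 0.0439 in limma, where 0.373% of all genes passed, and it was the 1 ribosomal protein gene to do so.

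The ratio of Rpl3l to Rpl3, which does not depend on scaling between libraries, was 2.73, 2.75 and 2.78 in Chow 1, 2 and 3. It was 0.875, 1.29 and 0.699 in HFpEF. The lowest Chow ratio was thus above the highest HFpEF ratio, and in HFpEF 1 and HFpEF 3 Rpl3 was the more abundant per base of exon. On the log2 scale the ratio was 1.46 ± 0.0116 in Chow and -0.11 ± 0.449 in HFpEF (SD, n = 3), a difference of -1.58 or 2.98-fold. The exact two-sided permutation test gave p = 0.1, the smallest that 3 mice against 3 allow, and p = 0.2 after Benjamini-Hochberg adjustment over the 4 paralog pairs that could be tested. In reads, Rpl3l made up 58.6% (95% Wilson interval 57.3 to 59.9), 58.8% (57.3 to 60.2) and 59.0% (57.5 to 60.4) of the 4458 to 5460 reads of the pair in Chow. The shares in HFpEF were 31.2% (29.8 to 32.5), 40.1% (38.8 to 41.4) and 26.6% (25.5 to 27.6) of 4500 to 6817 reads. These intervals cover counting error only, and none of the HFpEF intervals reached those of Chow. With the length of the principal annotated mRNA of each gene in place of all its exons, the ratio was 1.39 to 1.41 in Chow and 0.445, 0.657 and 0.355 in HFpEF. The summed FPKM of both genes was 185.9 ± 0.777 in Chow and 138.5 ± 6.34 in HFpEF (SD, n = 3), with no overlap between groups.

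**Figure D2:**
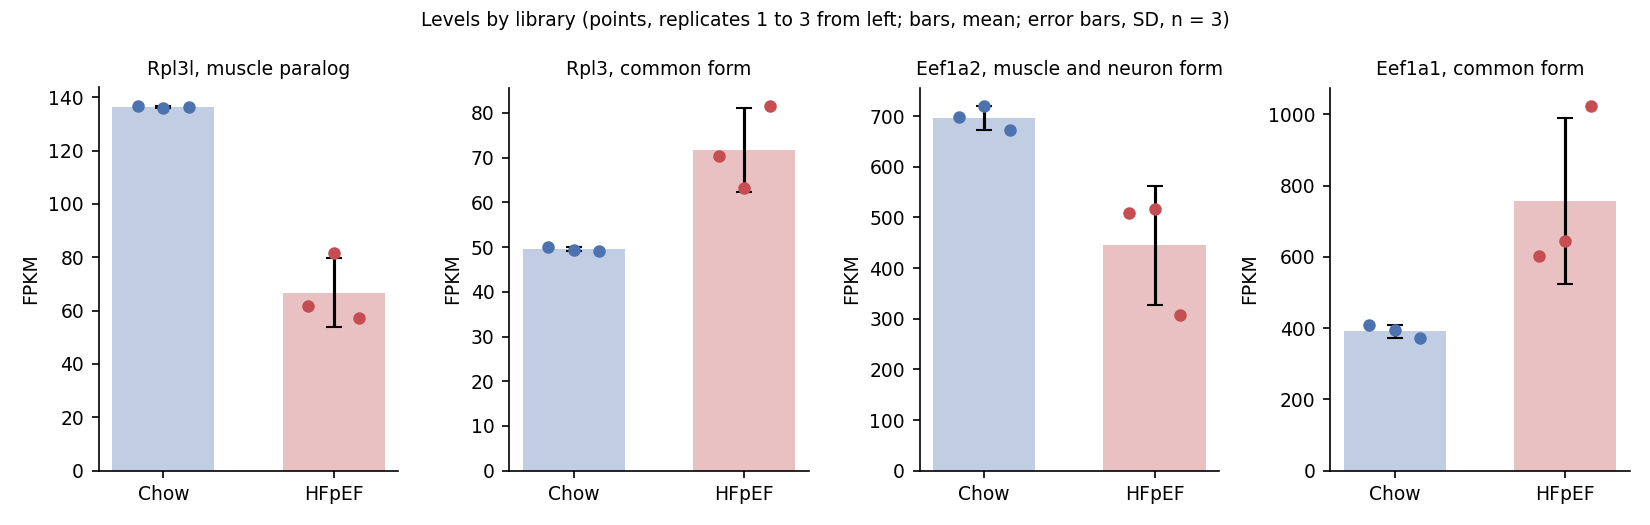
FPKM of Rpl3l, Rpl3, Eef1a2 and Eef1a1 in each library (points, replicates 1 to 3 from left), with the group mean as a bar from 0 and the SD as an error bar (n = 3). The 3 HFpEF libraries are below Chow for Rpl3l and Eef1a2 and above Chow for Rpl3 and Eef1a1.

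Sequence shared by the pair was limited. The mRNAs of Rpl3 and Rpl3l were 74.4% identical over 1189 aligned bases, and their longest identical run was 22 bases. Rpl3l had no copy elsewhere in the transcriptome at 99% identity over at least 100 bases. Rpl3 had 2, which covered 89.6% of its mRNA, so that reads could be shared between Rpl3 and these pseudogenes. Rpl3-ps1 was at 12.0 to 14.6 FPKM in Chow and at 15.9 to 19.9 in HFpEF, and Gm5879 was at most 0.282 in any library. Both pseudogenes thus stood below Rpl3, and the one with signal was higher in HFpEF as well. The introns of Rpl3 also hold small nucleolar RNA (snoRNA) genes, and its annotated span overlaps the protein-coding gene Syngr1. Reads in overlapping genes can be left uncounted.

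Rpl3l was also compared with the 5 cardiomyocyte markers in each library. Relative to the median of the 5 cardiomyocyte markers, Rpl3l was at -0.74, -0.48 and -0.23 on the log2 scale in HFpEF 1, 2 and 3 and between -0.04 and 0.02 in Chow. This comparison was chosen after the data were seen. Its mean difference was -0.49 with no overlap between groups (exact two-sided permutation p = 0.1), and it was smallest in HFpEF 3, where the cardiomyocyte markers were lowest. The comparison holds for the median of the markers only. Their fitted log2 fold changes ran from -1.08 to -0.48, and the lowest was thus below that of Rpl3l (-1.05). The share of the Rpl3l difference that follows cardiomyocyte content was not tested. In the 300 bases around the first start of Rpl3l, an E-box (CANNTG, the same on both strands, the core of the sites of MyoD-family factors) occurred 4 times and a MEF2 consensus did not occur. Around the second annotated start of Rpl3l, a MEF2 consensus occurred 1 time, so that by gene, over any start, Rpl3l had one. Both are sites that muscle transcription factors use. The stretch from 44 to 15 bases before the start held a pair of these E-boxes, in capitals.
Rpl3l (chr17:24727782-24727811, plus strand): cCAGGTGctaaatctgggatctggCAGCTG
An E-box of these letters was present in the promoter of 74.99% of all genes in the table and of 52.6% of the 60S and 40S genes. A MEF2 consensus was found, over any start of a gene, in 3.70% of all genes, in 0 of the 57 and in 1 of the 8 paralogs.

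Of the other paralogs, Rpl22l1 was the one whose HFpEF libraries all lay above Chow. Rpl22l1, which can replace Rpl22 in the 60S subunit, was at 5.30, 6.04 and 5.94 FPKM in Chow and at 6.43, 7.15 and 10.4 in HFpEF. The log2 fold change was 0.44 (SE 0.19) with an adjusted p of 0.229 in limma. Rpl22 itself was at 43.9 ± 3.35 in Chow and 42.2 ± 3.12 in HFpEF (SD, n = 3). The ratio of Rpl22l1 to Rpl22 was 0.128, 0.127 and 0.139 in Chow and 0.163, 0.172 and 0.229 in HFpEF, a log2 difference of 0.50 (exact two-sided permutation p = 0.1, adjusted p = 0.2 over the 4 pairs). Copies of Rpl22l1 covered 77.7% of its mRNA, so its level is uncertain. Rps27l, a p53 target that resembles Rps27, was at 39.6, 39.1 and 44.1 in Chow and at 34.9, 29.6 and 29.9 in HFpEF. Its log2 fold change was -0.38 (SE 0.11) with an adjusted p of 0.143 in limma, and the groups did not overlap. Rps27 was at -0.38 (SE 0.18) too, but its groups overlapped and copies covered 98.8% of its mRNA. The ratio of the pair differed by 0.0018 on the log2 scale (exact two-sided permutation p = 1). It varied widely within Chow, from 0.822 to 1.30, so this small difference is imprecise. The ratio of Rpl7l1 to Rpl7 was 0.103 to 0.109 in Chow and 0.0895 to 0.120 in HFpEF, with a difference of -0.06 (exact two-sided permutation p = 0.7) and overlapping groups. Rps27rt, an intronless relative of Rps27, was at 68.0 in Chow 1 and at 142.2 and 146.4 in the other two Chow libraries, and copies covered 92.3% of it. Its HFpEF values of 96.7 to 120.7 lay inside that range. Rpl36a and Rpl39, whose paralogs were near 0, were at 16.7 to 20.1 and 35.3 to 40.2 in Chow and at 16.5 to 20.9 and 33.3 to 49.7 in HFpEF.

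The stalk proteins recruit and stimulate the elongation factors on the 60S subunit. Rplp1, the most abundant of the ribosomal protein mRNAs per base of exon, was at 655.4, 637.5 and 646.3 FPKM in Chow and at 534.2, 616.8 and 725.1 in HFpEF. The Chow values thus fell inside the HFpEF range, and the log2 fold change was -0.06 (SE 0.17). Rplp2, its partner, was at 63.3 ± 7.42 in Chow and 59.9 ± 8.87 in HFpEF (SD, n = 3). Rplp0, the base of the stalk and a common reference gene for RT-qPCR, was at 351.1, 362.4 and 304.4 in Chow and at 288.7, 303.6 and 265.9 in HFpEF. All 3 HFpEF values lay below Chow, but the gap to the lowest Chow value was under 1 unit, and the log2 fold change of -0.25 (SE 0.14) had an adjusted p of 0.328 in limma.

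In the 60S subunit, 34 of 46 genes had a negative fitted log2 fold change, with a median of -0.08, beside 7288 of 14227 negative and a median of -0.01 over all genes tested. The signs of both subunits' genes depended on scaling, and 14 of the 77 60S and 40S genes were negative with quantile normalization and 21 with scaling to reads outside mitochondrially encoded genes, against 50 here. The lowest of the 60S genes was Rpl31, a protein at the rim of the exit tunnel. It was at 88.4, 87.8 and 81.2 in Chow and at 72.1, 76.0 and 49.1 in HFpEF (log2 fold change -0.41, SE 0.19). HFpEF 3 was the lowest library for it. Rpl36, named after its values were seen, was at 269.7, 286.4 and 305.5 in Chow and at 227.4, 231.8 and 219.2 in HFpEF. Its log2 fold change of -0.34 (SE 0.13) had an unadjusted p of 0.0308 and an adjusted p of 0.182 in limma. At the upper end stood Rpl3, then Rpl13a, a protein that also takes part in translational silencing, at 3.06, 3.95 and 3.403 in Chow and 3.69, 4.05 and 5.88 in HFpEF (log2 fold change 0.35, SE 0.20). Its groups overlapped. Rpl10, which joins the large subunit late in its assembly and was named after its values were seen, was at 105.4, 101.2 and 90.7 in Chow and 114.1, 115.2 and 123.4 in HFpEF. It was higher in every HFpEF library, with a log2 fold change of 0.25 (SE 0.12) and an adjusted p of 0.261 in limma. Copies covered 76.1% of the mRNA of Rpl31, 97.9% of that of Rpl36, 59.4% of that of Rpl13a and 86.2% of that of Rpl10, so their levels are uncertain.

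In the 40S subunit, 16 of 31 genes had a negative and 15 a positive log2 fold change, with a median of -0.01. Rps28 was at 21.01, 25.3 and 24.7 in Chow and 11.6, 19.96 and 24.0 in HFpEF, with a log2 fold change of -0.41 (SE 0.27), HFpEF 1 as the lowest library and overlapping groups. Rps12 had the highest log2 fold change of all tested members, 0.60 (SE 0.52), and it came from 1 library. It was at 14.8, 16.3 and 20.4 in Chow and at 15.5 and 17.7 in HFpEF 1 and 2, but at 63.3 in HFpEF 3. The annotation places 3 snoRNA genes inside Rps12, and copies covered 84.9% of its mRNA. Rps20 followed the same order, at 27.2 to 28.3 in Chow and at 26.5, 29.8 and 48.2 in HFpEF (log2 fold change 0.27, SE 0.22). Rpsa, which is also known as a laminin receptor, was at 126.3 ± 8.49 in Chow and 124.0 ± 2.30 in HFpEF (SD, n = 3), a log2 fold change of -0.03 (SE 0.12). Rps3a1 and Rps15 were the other most abundant members beside Rplp1 and Rplp0. Rps3a1 was at 350.6 to 355.2 in Chow and at 326.5, 353.1 and 521.8 in HFpEF, and Rps15, at 312.6 to 326.3 in Chow, was at 242.8 to 284.8 in HFpEF. Rps10 was the least abundant tested member at 0.895 to 1.19 in Chow and 1.08 to 1.20 in HFpEF. A read-through gene of Rps10 and its neighbour overlaps it in the annotation, and reads in overlapping genes can be left uncounted.

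All genes, the subunit genes among them, were spread more widely in HFpEF 3 than in the other libraries. The median ratio of the 77 60S and 40S genes to their Chow mean was -0.19 in HFpEF 1, -0.07 in HFpEF 2 and 0.10 in HFpEF 3 on the log2 scale, and between -0.02 and 0.02 in the Chow libraries. HFpEF 1 was the lowest of the 3 HFpEF libraries for 48 of the 77 genes, and HFpEF 3 was the highest for 56. Over all 14227 genes tested, HFpEF 1 was the lowest for 4130 and HFpEF 3 the highest for 5483. The interquartile range of the 77 ratios was 0.392 in HFpEF 3, 0.1499 in HFpEF 1 and 0.145 in HFpEF 2, and 0.0749 to 0.13997 in Chow. Over all genes tested it was 0.933 in HFpEF 3, 0.475 in HFpEF 1 and 0.470 in HFpEF 2, wider than for the 77 in each of these libraries. Over all 3 HFpEF libraries the median log2 fold change of the 77 genes was -0.06, with 50 of 77 negative. This sign depended on scaling: quantile normalization gave a median of 0.17 with 14 of 77 negative. Scaling to reads outside mitochondrially encoded genes moved the median of all genes to 0.13 and that of the 77 to 0.09, which left the 77 at -0.04 relative to all genes. It also depended on single libraries. Without HFpEF 3, 67 of the 77 genes were negative, with a median of -0.13 beside -0.0090 for all genes. Without HFpEF 1, 38 of the 77 were negative, with a median of 0.0014 beside -0.01 for all genes. With HFpEF 3 left out, 27 of the 83 tested members were lower at an unadjusted p under 0.05, where 15.0% of all genes were. There, 5 passed an adjusted p under 0.05 in limma, among them Rpl3l, Rps2 (-0.35), Rpl36 (-0.32) and, in the other direction, Rpl3. They were 6.02% of the 83, against 8.35% of all genes. Rps2 was named after its values were seen.

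**Figure D3:**
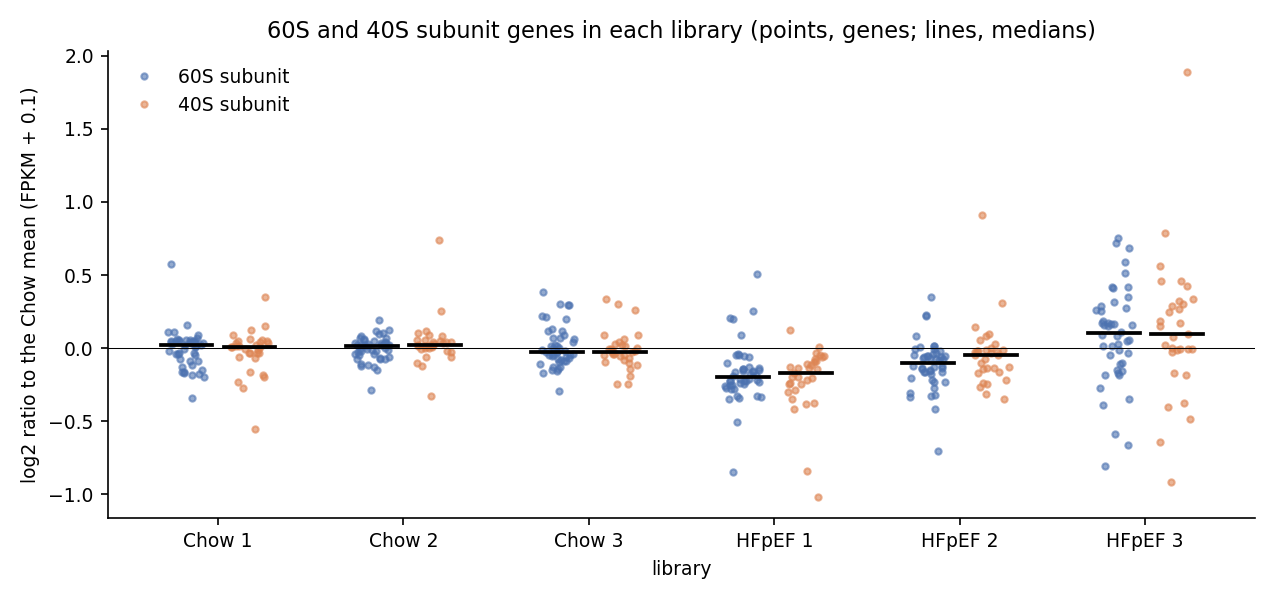
Log2 ratio to the Chow mean (FPKM plus 0.1) of each 60S and 40S gene in the 6 libraries, with points for genes and lines for medians. The median of both subunits together is -0.19 in HFpEF 1, -0.07 in HFpEF 2 and 0.10 in HFpEF 3, where the points are also most widely spread, as they are for all genes tested.

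As a share of the library, the ribosomal protein genes took 1.22%, 1.20% and 1.19% of recovered reads in Chow 1, 2 and 3 and 1.20%, 1.32% and 1.79% in HFpEF 1, 2 and 3. The HFpEF mean of 1.44% ± 0.314 was 1.19 times the Chow mean of 1.20% ± 0.0169 (SD, n = 3), with overlapping groups, and without HFpEF 3, the library with the fewest mitochondrial reads, it was 1.045 times. Of reads outside mitochondrially encoded genes, the shares were 1.60% ± 0.0347 in Chow and 1.71% ± 0.198 in HFpEF. The 40S genes held 42.7% to 43.1% of the ribosomal protein reads in Chow and 42.7%, 43.5% and 44.7% in HFpEF. Their means of 42.9% ± 0.228 and 43.6% ± 0.995 (SD, n = 3) differed by less than the spread in HFpEF.

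Some cytosolic ribosomal proteins carry other names, and 2 of them are given here without standing for the rest. Fau, a ubiquitin-like protein fused to a 40S protein, was at a log2 fold change of -0.08 (SE 0.14), and Rack1, a 40S scaffold for signalling kinases, at -0.0055 (SE 0.15). Rps27a, which encodes ubiquitin fused to a 40S protein and was named after its values were seen, varied within each group. It was at 20.6, 50.4 and 26.5 in Chow and at 16.8, 56.7 and 32.3 in HFpEF.

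Eef1a1 and Eef1a2 are the pair of genes for elongation factor 1A, which brings aminoacyl-tRNA to the ribosome. Eef1a2 takes over from Eef1a1 in adult muscle and neurons. Eef1a2 was at 698.8, 719.6 and 672.1 FPKM in Chow and at 508.4, 517.5 and 308.3 in HFpEF, a log2 fold change of -0.69 (SE 0.23, adjusted p 0.167 in limma). Eef1a1 was at 408.3, 393.7 and 371.6 in Chow and at 601.4, 643.6 and 1024 in HFpEF, a log2 fold change of 0.91 (SE 0.23, adjusted p 0.119 in limma). Neither pair of groups overlapped, and neither gene passed the threshold. The ratio of Eef1a2 to Eef1a1 was 1.71, 1.83 and 1.81 in Chow and 0.845, 0.804 and 0.301 in HFpEF, a log2 difference of -1.60 or 3.02-fold (exact two-sided permutation p = 0.1, a comparison chosen after the data were seen). As for Rpl3l and Rpl3, the muscle form was the more abundant per base of exon in every Chow library. On that scale the order was turned for Eef1a2 in all 3 HFpEF libraries and for Rpl3l in HFpEF 1 and HFpEF 3. In reads, and per base of the principal mRNA, it was turned for Rpl3l in all 3. The most extreme library was HFpEF 3 for both pairs.

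The rest of the translation machinery was described from lists of 9 elongation, 40 initiation, 61 ribosome biogenesis, 15 RNA polymerase I and 20 mTOR pathway genes that were tested. None of these genes passed an adjusted p under 0.05 in limma. The median log2 fold changes were -0.17, -0.16, -0.08, -0.09 and -0.11 in that order, beside -0.01 for all genes tested. Of the initiation genes, 34 of 40 were negative, 11 were lower and 1 was higher at an unadjusted p under 0.05. Of all genes tested, 7288 of 14227 were negative, 13.1% were lower and 10.2% were higher by the same criteria. Tpt1, a TOP mRNA placed on this list, was at 364.2, 364.0 and 337.5 in Chow and at 318.2, 333.5 and 291.1 in HFpEF. Eif1, which guards start codon choice, was at 192.6 to 193.2 in Chow and 137.3 to 167.8 in HFpEF, a log2 fold change of -0.33 (SE 0.13). Of the biogenesis genes, the most abundant was Npm1, a nucleolar chaperone, at 28.1 to 31.8 in Chow and 29.6, 29.7 and 43.0 in HFpEF, followed by Rrp1 at 28.4 to 30.01 and 23.7 to 28.0. Ubtf, which opens ribosomal DNA for RNA polymerase I, was at a log2 fold change of 0.23 (SE 0.13), and Rrn3, which recruits that polymerase, at -0.26 (SE 0.12). Among mTOR pathway genes, Maf1 was at -0.24 (SE 0.12) and Eif4ebp1, the translational brake released by mTOR, at -0.38 (SE 0.14).

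The mitochondrial ribosome has its own proteins, also encoded in the nucleus, and served as the most similar set. Of 78 such genes 77 were tested. All but 1 had a negative log2 fold change, the median was -0.51, and 61 were lower and none higher at an unadjusted p under 0.05, where 13.1% of all genes tested were lower. None passed an adjusted p under 0.05 in limma. Their medians by library were -0.39, -0.35 and -0.86 in HFpEF 1, 2 and 3. The cytosolic set moved otherwise, with its highest median in HFpEF 3, the library in which the mitochondrial set was lowest. The medians of the cardiomyocyte markers in the same libraries lay close to those of the mitochondrial set, and their part in it was not tested.

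**Figure D4:**
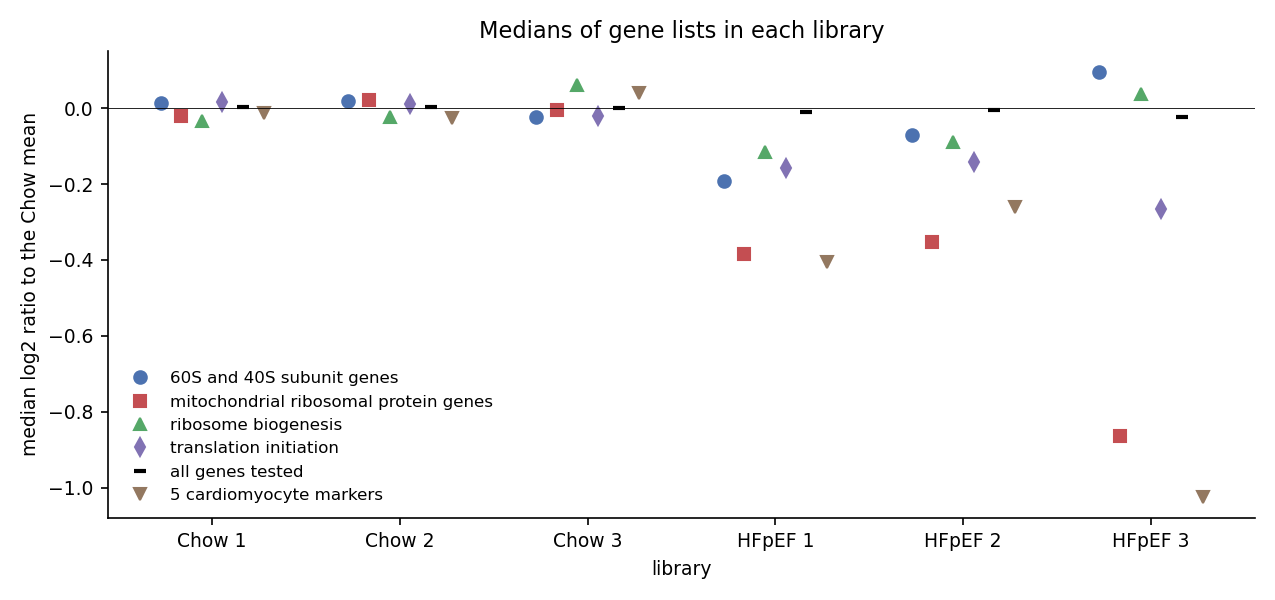
Median log2 ratio to the Chow mean (FPKM plus 0.1) of 5 gene lists and of all genes tested, in each of the 6 libraries. The cytosolic subunit genes stay between -0.19 and 0.10, while the mitochondrial ribosomal protein genes and the cardiomyocyte markers reach -0.86 and -1.02 in HFpEF 3.

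Other cell types differed between the groups as well, and their part in the ribosomal protein values was not tested. All 5 fibroblast markers were higher in every HFpEF library than in any Chow library, with sums of 151.7 to 177.3 FPKM in Chow and of 294.2, 327.5 and 3520 in HFpEF. Of 5 macrophage markers 3 were higher in every HFpEF library, Csf1r being the most abundant at 13.5 to 16.4 in Chow and 17.9 to 38.0 in HFpEF, and their sums were 35.6 to 45.6 and 47.5 to 108.1. All 5 adipocyte markers were higher, with Cfd at 35.3, 37.8 and 22.9 in HFpEF. Cfd, Cidec, Adipoq and Lep were listed at 0 in every Chow library. Of 4 endothelial markers, led by Cdh5, 2 were lower in every HFpEF library, and the sums were 159.4 to 178.2 and 128.4 to 133.7. The skeletal muscle list was led by Ckm, which heart also expresses, and its sum was 492.4 to 593.9 in Chow and 177.3 to 336.0 in HFpEF. Myh4 was at 0 throughout and Myh1 and Myh2 were below 0.1 in every library, so the defining myosins of fast skeletal muscle fibres were at or near 0 beside Rpl3l. Sums of the B cell markers (led by Cd79b), T cell markers (led by Trac) and red blood cell markers (led by Hbb-bs) were 0.903 to 3.66, 0.623 to 1.43 and 279.8 to 1591 in Chow and 1.41 to 6.75, 1.92 to 3.98 and 478.0 to 1813 in HFpEF.

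Levels between members have to be read with the copies of these genes in mind. Of the 77 60S and 40S genes, 62 had at least 1 transcript of another gene that matched at 99% identity over at least 100 bases, and for 41 such copies covered over 50% of the mRNA. The median FPKM was 122.0 for the 15 genes with no copy and 62.4 for the 62 with copies. Across the 77 genes the covered share and the mean FPKM had a Spearman rho of -0.16, given as a description, since genes share libraries and are not independent. The mean FPKM ran from 1.12 for Rps10 to 635.9 for Rplp1, and 4 genes were under 10. The 18 tested members with no copy had a median log2 fold change of -0.04, and the 43 with over 50% covered had one of -0.06. The 301 pseudogenes that carry a ribosomal protein symbol summed to 1014 ± 38.2 FPKM in Chow and 935.6 ± 18.4 in HFpEF (SD, n = 3), beside 8133 ± 90.6 and 7665 ± 672 for the genes themselves.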

How the data were processed

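The authors isolated total RNA from left ventricular myocardium, sequenced it on an Illumina NovaSeq, aligned clean reads by HISAT2, assigned them to genes by featureCounts, and deposited FPKM per gene. The submitters' processing notes name GRCm38 and mm10, and the settings for strand and multiple alignments are not given in the sources used here. FPKM times union exon length (GENCODE M21) gave whole multiples of a step for 96.1% to 96.2% of values above 0 at a relative tolerance of 1e-06, from which reads were recovered. The library totals implied by this step were 11734336 to 14239712 in Chow and 13847565, 16942925 and 19316914 in HFpEF 1, 2 and 3. They were below the recovered reads in every Chow library and above them in every HFpEF library. FPKM is therefore not relative to the recovered reads, and summed FPKM and shares of reads need not move together. Median-of-ratios factors were 0.999 to 1.00. The fit and the log2 ratios to the Chow mean used FPKM after this rescaling, and the FPKM values printed are as deposited. Log2 of FPKM plus 0.1 was fitted with limma 3.58.1 in R 4.3.3 (lmFit, eBayes with trend and robust options) for genes that reached an FPKM of 0.5 in 3 or more libraries. Benjamini-Hochberg adjustment ran over all 14227 genes. The fit was tested on simulated data for HFpEF against Chow (14222 genes), where it called 184 of 200 genes changed by 2 on the log2 scale and 15 unchanged genes. The simulation gave all genes and libraries the same dispersion, and its changes were larger than that of any tested member. It therefore does not show how often changes of the members' size are called, or what a library spread like HFpEF 3 does to the calls. Copies were sought with blastn 2.17.0 at 99% identity over at least 100 bases. Exact permutation tests used scipy 1.17.1 in Python 3.11.15.

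Groups follow the sample labels. The members, lists, tests and named genes were chosen with earlier results of these data known. Named were Rpl3l, Rpl3 and the other paralog pairs, the stalk genes and Rpsa, the 5 highest and 5 lowest log2 fold changes, the 4 most and 2 least abundant members, Fau and Rack1, Eef1a1 and Eef1a2, the 2 most abundant genes of each pathway list, and the leading gene and markers at 0 of each marker list. Results for some genes covered by this rule are not reported here. Others are marked as named after their values were seen. Proteomic data were not analysed here, and neither were authors' comparison columns.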

Additional observations from a re-analysis of the deposited data

How the results depend on the processing

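The number of genes called over the whole table (14 at an adjusted p under 0.05) was 48 with scaling to reads outside mitochondrially encoded genes, 3 and 5 with pseudocounts of 1 and 0.01, 33 without the trend and robust options, 0 with voom on recovered reads and 2 with the replicate block, and ran from 2 to 1188 when 1 library was left out, the highest without HFpEF 3. The number of ribosomal protein genes called was 0 under every alternative that kept all 6 libraries, and ran from 0 to 5 when 1 was left out (1 without HFpEF 2, 5 without HFpEF 3). At an unadjusted p under 0.05, members higher in HFpEF (1) numbered 3 with quantile normalization, 3 with scaling to reads outside mitochondrially encoded genes and 2 with the replicate block, and 1 to 2 with 1 library left out. Members lower (5) numbered 2 with quantile normalization and 2 with reads outside mitochondrially encoded genes, and from 3 to 27 with 1 library left out. The share of all genes lower by this criterion (13.1%) was 11.8%, 6.51% and from 7.13% to 15.0% under the same alternatives. The median log2 fold change of the members (-0.06) was 0.17 with quantile normalization and 0.091 with reads outside mitochondrially encoded genes, and ran from -0.13 to -0.0027 with 1 library left out. Rpl3l stayed negative and Rpl3 positive under 16 alternatives each, with log2 fold changes from -1.20 to -0.81 and from 0.43 to 0.74. Relative to the median of the 5 cardiomyocyte markers, an alternative for Rpl3l chosen after seeing the data, its difference was -0.49. With 1 library left out, the log2 fold changes of Rpl3l and Rpl3 ran from -1.20 to -0.94 and from 0.43 to 0.61, and adjusted p in limma from 0.0160 to 0.340 and from 0.0234 to 0.358. The log2 ratio of Rpl3l to Rpl3 differed by -1.82 to -1.37 with 1 library left out, and the ratio of summed ribosomal protein read shares (1.19) was 1.07 outside mitochondrially encoded genes and 1.045 to 1.29 with 1 library left out. Same-numbered libraries did not deviate together (correlations of -0.041, -0.073 and -0.057), so the numbers were not taken as pairs. With the replicate block the adjusted p in limma was 0.194 for both Rpl3l and Rpl3.

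With 3 mice per group an exact permutation test cannot go below 0.1, and 1 library (HFpEF 3) decided how many genes were called. Reads shared with pseudogenes and overlapping genes make the levels of the members concerned uncertain.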

Other observations

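Of 10 snoRNA host genes tested, 8 had a positive log2 fold change with a median of 0.35, none passed an adjusted p under 0.05 in limma, and 1 was higher at an unadjusted p under 0.05, where 10.2% of all genes tested were. Their medians by library were 0.17, 0.16 and 0.96 in HFpEF 1, 2 and 3, against -0.19, -0.02 and 0.21 in Chow 1, 2 and 3. Gas5, a TOP transcript without a protein product, was at 4.20 to 5.68 FPKM in Chow and at 5.22, 5.73 and 9.46 in HFpEF, and Epb41l4aos at 8.17 to 10.4 and 5.88 to 17.7.

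Log2 fold changes differed with gene length. Protein-coding genes with up to 1000 bases of exon had a median of -0.27 (291 genes), those of 1000 to 2000 bases -0.10, those of 2000 to 4000 bases -0.03 and those over 4000 bases 0.03. The 10 ribosomal protein genes with up to 1000 bases had a median of -0.19, the 32 of 1000 to 2000 bases one of -0.07, the 29 of 2000 to 4000 bases one of -0.04 and the 6 over 4000 bases one of -0.04. They thus lay above protein-coding genes of the same length in the 2 shorter classes and below them in the 2 longer ones. The median exon length was 1781 bases for the 60S and 40S genes and 4452 for protein-coding genes tested. The part of gene length in the ribosomal protein values was not tested.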
